A study of Homo sapiens with 12 samples.

Results

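Caco-2 cells that stably carried a TLR4 plasmid, whichever form of TLR4 it encoded, were compared with Caco-2 cells that had received no exogenous DNA. Caco-2 is a human colon carcinoma line that differentiates towards small intestinal enterocytes in culture and serves as a model of the gut epithelium. The comparison used all 12 arrays of the series, which form 4 groups of 3 RNA samples: the TLR4-WT line with HA-tagged wild-type TLR4, the TLR4-D299G and TLR4-T399I lines, each with a single substitution in the same construct, and untransfected cells. Members of the comparison were the 9 arrays of the 3 lines, taken as the mean of the 3 line means, against the 3 untransfected arrays, over all 33297 probe sets. The lines were blasticidin-resistant clones (1 µg/ml) obtained after lipofection with 1 µg of plasmid per well, and every group, untransfected cells included, grew for 8 days before RNA was taken. There was no empty-vector line among the groups, the labels do not say how many clones stand behind a line, and exposure of untransfected cells to lipofection or blasticidin is not described. Effects of TLR4 itself, of transfection and selection, and of growth from clones therefore cannot be told apart in any result here. The labels call the 3 RNA samples of a group independent analyses without saying whether they came from separate cultures, so p-values reflect the scatter among these RNA samples alone, and that scatter may be technical.

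TLR4 is the cell-surface receptor for bacterial lipopolysaccharide. CD14 hands the lipid to TLR4 bound to its co-receptor MD-2, encoded by LY96, and the adaptors MyD88 and TRIF then carry the signal to NF-kB, to MAP kinases and to interferon genes. Normal gut epithelium holds little of the receptor, and D299G and T399I are common coding variants of human TLR4. What the lines share is described below, with the values of single lines where they differ.

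Values are log2 expression from the authors' RMA normalisation. A difference was called at a Benjamini-Hochberg adjusted p under 0.05 over all probe sets in limma's moderated test, and each gene is represented by its brightest probe set, which left 18417 named genes. Calls numbered 13064 over all probe sets (39.2%), with 6773 in the upward direction (20.3%) and 6291 downward (18.9%). With arrays centred on their median the balance turned, to 5363 higher and 6836 lower. Among named genes, 8682 were called, or 47.1%, with 4607 higher in the lines (25%) and 4075 lower (22.1%). Against that wide background the typical change was small, with a median absolute log2 change of 0.21 over all genes. A change of at least 2-fold was called for 106 genes higher (0.576%) and 264 lower (1.43%). A gene is said to have changed alike when it was called in the pooled comparison and in each line against untransfected cells, in the same direction, with the smallest line change at least 0.6 of the largest. That held for 1194 genes higher (6.48%) and 1039 lower (5.64%), and for 25 higher (0.136%) and 84 lower (0.456%) with at least 2-fold in every line. Over all probe sets 3361 changed alike (10.1%), 1782 higher (5.35%) and 1579 lower (4.74%), against 1369 and 1721 with arrays centred. All 9 line arrays lay above every untransfected array for 2397 genes (13%) and below every one for 2489 (13.5%).

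The 3 lines also differed among themselves: limma's moderated F test among them called 5399 of 18417 genes (29.3%) and 7092 probe sets (21.3%). Of the 2233 genes changed alike (12.1% of all genes), 236 were among them, which is 1.28% of all 18417 genes and not of the 2233. The rule for changing alike itself limits how far the lines can differ, so that count is no finding. The line was also entered as a random block, so that 9 arrays of 3 lines no longer counted as 9 fully separate samples. The same correlation between arrays of a line, 0.27, was used for every probe set. Untransfected cells formed a single block, so that fit allowed for differences among lines only in part. With the block 4837 probe sets were called against 13064 without it, and 1517 genes were higher (8.24%) and 1923 lower (10.4%). Counts under that block are therefore given beside those of the gene lists below, but were not made for whole chromosomes. Epithelial markers had a mean log2 value of 10.76 to 11.03 in the line arrays and 10.71 to 10.80 in untransfected arrays, and 0 of 12 were under the arrays' lowest lower quartile (5.2) in all groups. Fibroblast markers averaged 5.81 to 6.15 in line arrays against 5.75 to 5.77, with 4 of 11 members higher and 1 lower (1 and 0 under the line block). Leukocyte markers (6.0 to 6.19 against 5.97 to 6.08, 3 of 10 higher and 2 lower, 1 and 1 under the block) and endothelial markers (5.93 to 6.21 against 5.92 to 6.04, 2 of 8 higher and 1 lower, 0 and 0 under the block) spanned overlapping ranges. Hepatocyte markers, part of which Caco-2 cells express, ran from 7.73 to 8.5 in line arrays against 8.32 to 8.37, with 3 of 11 higher and 4 lower (1 and 0 under the block). The part of these marker differences in the results below was not tested. RNA came from whole cultures, so fewer cells of a kind and less RNA per cell cannot be told apart.

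TLR4 had log2 values of 4.78, 5.12 and 4.59 in the untransfected arrays and ran from 8.29 through a median of 8.62 to 8.89 in the line arrays. The groups did not overlap, and TLR4 was at least 13.5-fold higher in the lines (log2 change 3.76, SE 0.10, adjusted p = 2.29e-09), a lower bound because the untransfected values lay near background. The array does not separate plasmid-borne from endogenous transcripts. LY96 was near background in every group (3.47, 3.94 and 3.67 in untransfected cells, 3.36 to 3.68 in the lines). CD14 overlapped between the groups, at 7.76, 7.78 and 7.65 against 7.27 to 7.81, and missed the threshold (log2 change -0.18, SE 0.09, adjusted p = 0.121).

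Other genes of the receptor complex and its adaptors changed little and in both directions. Of 19 measured genes, TLR4 included, 2 were higher (10.5% against 25% of all genes) and 5 lower (26.3% against 22.1%). With the line as a random block 1 was higher and 2 lower, beside 8.24% and 10.4% of all genes. The share lower was thus close to that over all genes. MYD88, the main adaptor, was 8.49, 8.65 and 8.55 in untransfected arrays and 8.02 to 8.31 in the lines, with no overlap, and fell 1.33-fold (adjusted p = 0.000107). RNF216, a ubiquitin ligase that targets Toll-like receptors, fell 1.28-fold and was the only other member besides TLR4 to have changed alike. TIRAP, TRAF6 and HSP90B1 fell by 0.29, 0.23 and 0.15 on the log2 scale, and IRAK1 was higher by 0.20. These counts rest on few calls: without untransfected replicate 2 the members lower fell to 3, and without untransfected replicate 3 the members higher numbered 4.

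Among 30 subunits, inhibitors and targets of NF-kB, 10 were higher (33.3%) and 6 lower (20%), close to the shares over all genes, with a median log2 change of 0.03, and 4 and 3 with the line as a random block. NFKBIZ, of the IkB family, fell 1.65-fold (adjusted p = 3.65e-05), the subunit REL 1.40-fold and the superoxide dismutase SOD2 1.41-fold, alike in every line. RELB, the adhesion molecule ICAM1 and the inhibitor NFKBIB rose alike by 1.42-fold, 1.36-fold and 1.33-fold. CXCL8, the classic epithelial output of the pathway, was 6.11, 5.64 and 6.19 in untransfected arrays and 5.96 to 6.35 in the lines. The groups overlapped and CXCL8 missed the threshold (log2 change 0.15, SE 0.12, adjusted p = 0.318). TNF had a log2 change of 0.00 (adjusted p = 0.995).

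The 15 genes with the largest rise shared by every line, ranked by the smallest of the 3 line changes, were TLR4, GPX2, DUSP6, LGR5, SAMD5, MYC, BST2, TRABD2A, SKAP1, NOSTRIN, ID1, SERPINE2, SLC2A1, GAL and ABCG2. The naming rule required all 9 line arrays to lie outside the untransfected range, so the absence of overlap in them, and in the list members named below as changed alike, is no finding. GPX2, a glutathione peroxidase of the gut lining, stood at 7.80, 7.77 and 7.70 in untransfected arrays and ran from 9.99 through 10.37 to 11.30 in the lines. Pooled over the lines its rise was 6.92-fold (log2 change 2.79, SE 0.07, adjusted p = 2.54e-09), with 10.6-fold in TLR4-T399I and 5.0-fold in TLR4-D299G at the ends. SLC2A1, the basal glucose transporter GLUT1, was already bright at 11.81, 11.84 and 11.78 and reached 13.06 to 13.23 with a median of 13.15. It rose 2.54-fold (SE 0.05, adjusted p = 1.66e-08), and the 3 lines lay between 2.46-fold and 2.63-fold, with no difference called among them (F test adjusted p = 0.495). ID1, an inhibitor of differentiation factors and a target of BMP signalling, moved from 8.20, 8.12 and 8.25 to between 9.42 and 9.69, a 2.63-fold rise (adjusted p = 6.39e-08). Like SLC2A1, it rose by nearly the same amount in each line, from 2.56-fold to 2.73-fold.

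BST2, the virus-tethering membrane protein, rose 3.22-fold, and TRABD2A, a membrane protease that cleaves Wnt proteins, rose 3.25-fold. SKAP1, an adaptor of T cell receptor signalling, was near background in untransfected cells (4.81, 5.09 and 5.06) and 6.40 to 7.07 in the lines, so that its 3.46-fold rise is at least that large. NOSTRIN, a trafficking protein of nitric oxide synthase, rose 3.18-fold. SERPINE2, a secreted protease inhibitor, rose 3.36-fold, unevenly, from 2.54-fold in TLR4-WT to 4.63-fold in TLR4-D299G. The neuropeptide galanin (GAL) rose 2.99-fold and SAMD5 3.58-fold. Next in rank, and at or above 2-fold in every line, were NT5E, SLCO4A1, MTTP, ABCB1, SPRY1, B3GNT3, EFNB2, BOP1, JAG1 and LYAR. NT5E, the ecto-nucleotidase CD73, rose at least 2.87-fold from near background, the Notch ligand JAG1 2.13-fold and the ephrin ligand EFNB2 2.23-fold.

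The 15 genes with the largest shared fall were HEPACAM2, C2, ZNF558, OSBPL6, TSPAN7, SLC10A5, ABCA5, EML6, SLC15A1, LINC01558, ABCC9, RAB27A, CROT, GPC5 and ALDH1L2. HEPACAM2, an adhesion protein of secretory cells, was 9.80, 9.79 and 9.53 in untransfected arrays and ran from 5.01 through 6.13 to 6.73 in the lines. Its fall was at least 13.7-fold (log2 change -3.77, SE 0.10, adjusted p = 2.54e-09), a bound because the TLR4-D299G values were near background. Other secretory markers did not follow it. Of 36 goblet, secretory and enteroendocrine cell markers, 15 were higher (41.7%) and 6 lower (16.7%), and 7 and 1 with the line as a random block. In that list 4 rose alike and HEPACAM2 alone fell alike. Of the 4, REG3A was near background in every group (mean 3.36 in untransfected cells, 3.85 to 4.03 in the lines). REG4 was close to background in untransfected cells (mean 5.25), and the others were INSM1 and GFI1. C2, an early component of the complement cascade, went from 10.69, 10.52 and 10.52 to between 7.32 and 8.27 with a median of 7.80, and fell 6.82-fold (adjusted p = 2.01e-09). C2 has 3 probe sets on the array, which can share probes through alternative copies of its locus.

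Several of the strongest falls were evenly spread over the lines. TSPAN7, a tetraspanin, had 10.77, 10.84 and 10.81 in untransfected arrays and 8.27 to 8.79 in the lines, and fell 5.05-fold, with no difference called among the lines (adjusted p = 0.127). OSBPL6, of the oxysterol-binding protein family, moved from 8.77, 8.85 and 8.67 to between 6.23 and 6.75 and fell 4.98-fold. EML6, a microtubule-associated protein, fell 4.13-fold although its untransfected values were spread from 8.72 to 9.57. RAB27A, a small GTPase of regulated secretion, fell 3.61-fold, and ALDH1L2, the mitochondrial formyltetrahydrofolate dehydrogenase, fell 3.24-fold. SLC10A5, an orphan of the bile acid transporter family, fell 5.23-fold. CROT, which acts in the breakdown of fatty acids by peroxisomes, fell 3.8-fold, less evenly (F test adjusted p = 0.0145), and the non-coding LINC01558 fell 3.41-fold. GPC5, a cell-surface heparan sulphate proteoglycan, fell 4.66-fold, from 3.2-fold in TLR4-T399I to 5.94-fold in TLR4-WT.

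**Figure D1:**
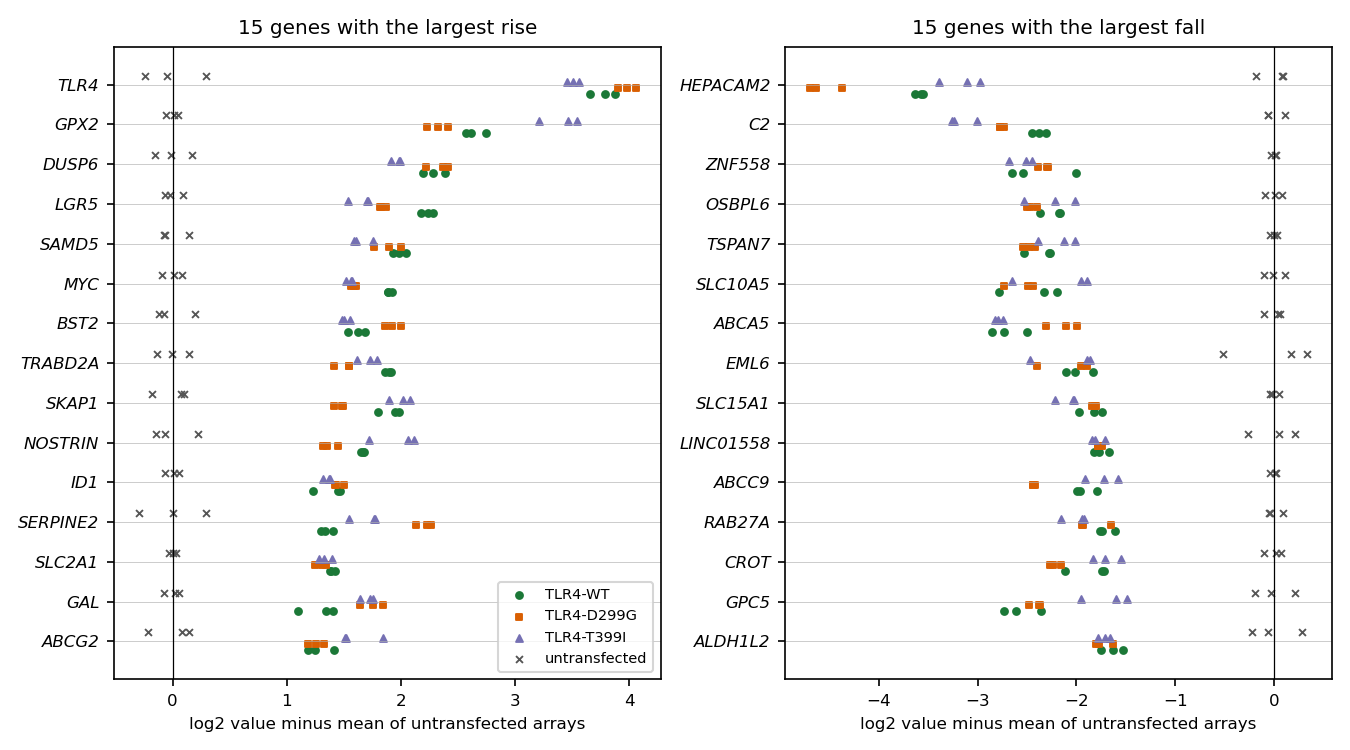
Expression on every array of the 15 genes with the largest rise (left) and the 15 with the largest fall (right) shared by the 3 TLR4 lines. Each point is 1 array, as its log2 value minus the mean of the 3 untransfected arrays (crosses); green circles are TLR4-WT, orange squares TLR4-D299G and purple triangles TLR4-T399I. Line arrays sit apart from the untransfected arrays in each row, evenly for ID1 and SLC2A1 and less so for SERPINE2 and GPC5, whose smallest line change was 0.61 and 0.65 of the largest.

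Genes that ERK signalling switches on, many of which then dampen it, were higher as a group. Of 29 measured genes, 21 were higher (72.4%) and 2 lower, with a median log2 change of 0.51 against 0.06 over all genes, and 14 higher and 1 lower with the line as a random block. DUSP6, the phosphatase that inactivates ERK, was 7.68, 7.87 and 7.54 in untransfected arrays and ran from 9.61 through 9.92 to 10.11 in the lines, a 4.58-fold rise (SE 0.07, adjusted p = 1.36e-08). SPRY1, an inhibitor of receptor tyrosine kinase signalling, went from 7.72, 7.87 and 7.79 to between 8.82 and 9.11 and rose 2.26-fold. Its relatives SPRY2 and SPRY4 rose 2.39-fold and 2.03-fold, and DUSP7 and the immediate-early gene IER2 rose by 0.57 and 0.51 on the log2 scale. MYC, a growth-promoting transcription factor in this list and among Wnt targets, went from 9.17, 9.24 and 9.07 to between 10.68 and 11.08 (median 10.75) and rose 3.20-fold (adjusted p = 5.04e-09). Other members rose in the mean but not evenly, such as ETV5 (0.66, 1.62 and 0.81 in TLR4-WT, TLR4-D299G and TLR4-T399I on the log2 scale) and SPRED1 (0.94, 0.28 and 0.71). Not every output gene was higher: EGR1 fell by 0.21 and IL1RAP by 0.90 on the log2 scale, and EREG, LIF and HBEGF were not called.

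Among 29 Wnt targets and intestinal stem cell genes, 15 were higher (51.7%) and 4 lower, but only 6 and 0 with the line as a random block. LGR5, the stem cell receptor for R-spondins, rose from 8.85, 8.96 and 8.80 to between 10.41 and 11.15, a 3.75-fold change (adjusted p = 5.69e-09). CD44, an adhesion receptor, went from 6.88, 7.02 and 6.93 to 7.55 to 7.91 and rose 1.74-fold with nearly equal changes of 1.63-fold to 1.80-fold. AXIN2, the feedback inhibitor used as a readout of the pathway, was higher by 0.20 (adjusted p = 0.0261), and NOTUM, RNF43 and OLFM4 were not called.

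Factors that build ribosomes, a list of MYC-driven genes, had the largest share of members called of the gene lists examined. Of 35 measured genes, 34 were higher (97.1%), 0 were lower, and 24 rose alike in every line (68.6% against 6.48% of all genes); with the line as a random block 29 were higher and 0 lower. The exception was WDR12 (log2 change 0.08). The median change was moderate, 0.56 on the log2 scale, and similar in the lines at 0.61 in TLR4-WT, 0.52 in TLR4-D299G and 0.64 in TLR4-T399I. BOP1, which matures the large subunit's RNA, was 8.63, 8.5 and 8.20 in untransfected arrays and 9.41 to 9.68 in the lines, and rose 2.12-fold (adjusted p = 2.85e-06). NOP2, an RNA methyltransferase of the nucleolus, moved from 9.60, 9.64 and 9.48 to between 10.38 and 10.86 and rose 2.01-fold. RRP12, NOP16 and the regulator MYBBP1A rose 1.95-fold, 1.83-fold and 1.77-fold, and GRWD1 1.73-fold. FBL, the methyltransferase fibrillarin, was tightly set at 11.13, 11.10 and 11.11 and rose to between 11.77 and 12.09 (1.78-fold, adjusted p = 1.83e-07). Among the structural proteins of the ribosome, 67 genes named RPL or RPS, 16 were higher (23.9%) and 4 lower, with a median of 0.03. There 9 were higher with arrays centred on their median, 8 without untransfected replicate 1 and 3 with the line as a random block.

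**Figure D2:**
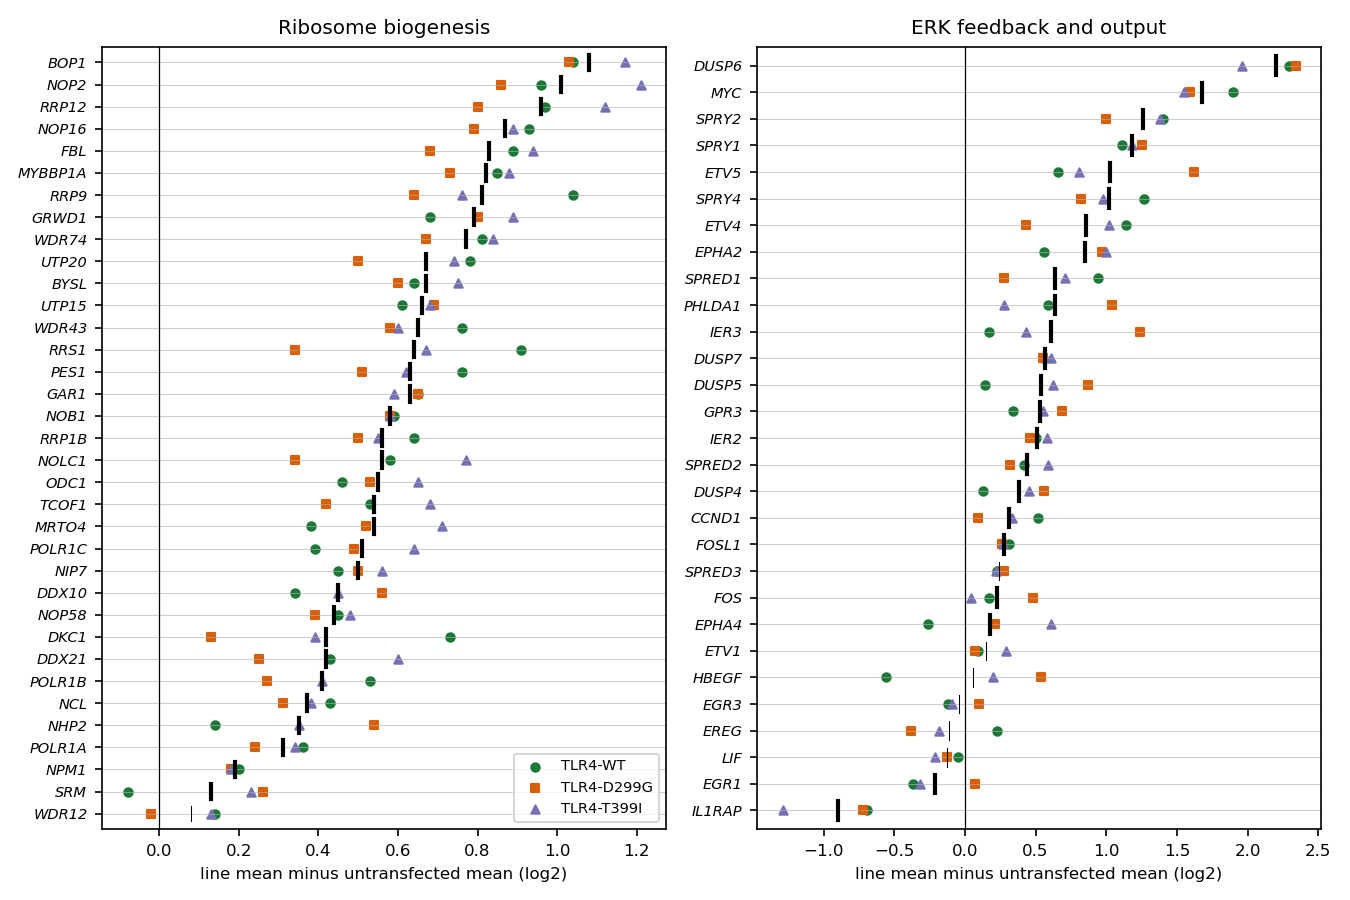
Change of each measured member of the ribosome biogenesis list (left, 35 genes) and the ERK feedback and output list (right, 29 genes), as the mean of 3 arrays of a line minus the mean of the untransfected arrays on the log2 scale. Symbols are the 3 lines and vertical bars the mean of the lines, thick where called. In the left panel 34 bars are thick and to the right of 0, and in the right panel the lines are close together for SPRY1, DUSP7 and IER2 and spread for ETV5 and HBEGF.

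The promoters of these genes were searched because many ribosome factors are textbook targets of MYC, which binds the E-box CACGTG. RefSeq promoters of build GRCh38.p14, 250 bases before to 50 after the annotated start, were matched by symbol for 14221 of the 18417 genes, and for 28 of the 35 ribosome factors. An E-box on either strand was present in 8.88% of all promoters, in 137 of 914 promoters of genes that rose alike (15%), in 75 of 852 of genes that fell alike (8.8%), and in 10 of 28 promoters of ribosome factors (35.7%). That list was drawn up as MYC-driven genes, so its share is a description of how it was chosen and no independent sign of MYC. The other lists searched also lay above the share of all promoters, although more of their members were lower than higher: 6 of 26 lysosome and autophagy promoters (23.1%), 4 of 29 of chaperones (13.8%), 2 of 17 of the degradation route (11.8%) and 3 of 26 of the ATF4 list (11.5%). The 4 shown were picked after the search and have CACGTG within 20 bases of the start; the 150 bases run from 130 before to 20 after it, 5′ to 3′ on the gene's strand, with the E-box in capitals.
FBL: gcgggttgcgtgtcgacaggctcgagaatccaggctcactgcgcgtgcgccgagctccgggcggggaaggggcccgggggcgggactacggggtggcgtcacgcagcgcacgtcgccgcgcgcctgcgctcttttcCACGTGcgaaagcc
RRP9: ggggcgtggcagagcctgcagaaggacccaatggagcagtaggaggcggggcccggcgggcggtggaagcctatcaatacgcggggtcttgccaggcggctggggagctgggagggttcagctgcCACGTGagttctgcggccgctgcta
UTP20: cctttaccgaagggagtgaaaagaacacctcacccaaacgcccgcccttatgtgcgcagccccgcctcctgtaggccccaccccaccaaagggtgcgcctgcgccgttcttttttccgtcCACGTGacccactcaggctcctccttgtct
PES1: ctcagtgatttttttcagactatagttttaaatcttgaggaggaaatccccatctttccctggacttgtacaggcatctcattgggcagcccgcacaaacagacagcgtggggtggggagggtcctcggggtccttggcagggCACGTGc
They lie at chr19:39846360-39846509 (FBL, minus strand), chr3:51941885-51942034 (RRP9, minus strand), chr12:101279975-101280124 (UTP20, plus strand) and chr22:30591891-30592040 (PES1, minus strand). The E-box begins 5 bases before the start of RRP9 and 10 before that of UTP20, and at base 7 of the FBL transcript and base 14 of PES1. All 4 genes rose alike, FBL 1.78-fold, RRP9 1.75-fold, UTP20 1.6-fold and PES1 1.55-fold. A match is a run of letters and no measure of binding.

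Other motifs were searched in the same way, both strands and allowing overlaps, so that TCACGTG and TCACGTGA sites are also E-boxes, and motifs of 10 or more letters are given by name. The ETS motifs CCGGAAGT and GGAAGTGA were found in 9.52% and 6.89% of promoters of genes that rose alike, against 6.39% and 4.17% of all promoters. The lysosomal motif TCACGTGA was in 1.2% of promoters of genes that rose alike, 2% of those that fell alike and 1.47% of all, and TCACGTG in 4.92%, 5.99% and 4.8%. In the lysosome and autophagy list they were in 4 of 26 promoters (15.4%) and 6 of 26 (23.1%). The endoplasmic reticulum stress element ERSE was in 0%, 0% and 0.12% in that order, although in 7 of 29 promoters of chaperone genes, its known targets. The related element ERSE-II was in 0%, 0.117% and 0.0914%, and TGACGTGG in 0.547%, 1.06% and 0.907%. TGATGNAA, an amino acid response motif, was in 1.86%, 1.06% and 2.54%. The core of the interferon-stimulated response element (2.63%, 2.7% and 3.04%), the TCF motif CTTTGAT (1.64%, 1.17% and 2.02%) and the antioxidant element TGACNNNGC (14.6%, 14% and 14.6%) completed the 12 motifs.

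Lysosomal genes moved the other way. Of 34 lysosome and autophagy genes, 20 were lower (58.8%) and 5 higher (14.7%), with a median log2 change of -0.32, and 14 were lower and 2 higher with the line as a random block. TPP1, a lysosomal peptidase, was 10.25, 10.19 and 9.94 in untransfected arrays and 9.20 to 9.38 in the lines, and fell 1.77-fold (SE 0.07, adjusted p = 3.76e-06). ASAH1, the acid ceramidase, went from 11.79, 11.82 and 11.79 to between 10.89 and 11.23 and fell 1.62-fold. The cholesterol carrier NPC2 fell 1.51-fold, the protease CTSB 1.47-fold, the proton pump subunit ATP6V1H 1.41-fold and the saposin precursor PSAP 1.34-fold, alike in every line. LAMP2, a membrane protein of the lysosome, fell by 0.86 on the log2 scale, from 0.67 in TLR4-WT to 1.18 in TLR4-T399I. The regulator TFEB was not called (log2 change 0.12, adjusted p = 0.121), while the autophagy receptor SQSTM1 was higher by 0.39 and the protease CTSZ rose alike by 0.30.

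Among genes of protein folding and quality control in the endoplasmic reticulum, more were called lower than higher. Among 30 chaperones and sensors of the unfolded protein response, 15 were lower (50%) and 1 higher (3.33%), and 7 and 0 with the line as a random block. DNAJC3, a co-chaperone that also restrains the kinase PERK, was 9.92, 10.14 and 10.04 in untransfected arrays and 8.71 to 8.92 in the lines, a 2.34-fold fall (adjusted p = 9.08e-08). It lies on chromosome 13, where 45.7% of genes were lower. EIF2AK3, which encodes PERK, went from 9.39, 9.44 and 9.20 to between 8.62 and 8.82 and fell 1.54-fold, the co-chaperone DNAJB9 fell 1.49-fold and the sensor ATF6 1.27-fold. The abundant chaperone HSPA5 fell by 0.31 on the log2 scale (adjusted p = 0.000819), whereas XBP1 was not called (log2 change -0.06, adjusted p = 0.305).

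Misfolded proteins are passed from there to the proteasome, and 9 of 20 genes of that degradation route were lower (45%) while 6 were higher (30%). EDEM1, a lectin that picks out misfolded glycoproteins, was 9.56, 9.50 and 9.24 in untransfected arrays and 8.13 to 8.69 in the lines, and fell 1.98-fold (adjusted p = 1.53e-06). SEL1L, the scaffold of the ubiquitin ligase complex, moved from 10.81, 10.84 and 10.78 to between 9.58 and 10.01 and fell 1.94-fold. OS9, a lectin on the same complex, fell 1.43-fold and the folding sensor UGGT1 1.24-fold. The channel protein DERL3 and the extraction factor UFD1 rose alike by 1.39-fold and 1.24-fold. Members higher numbered 3 with arrays centred on their median, and 3 with the line as a random block, where 6 were lower.

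Of 30 genes of the amino acid stress response that ATF4 governs, 16 were lower (53.3%) and 7 higher (23.3%), but 5 and 5 with the line as a random block. VLDLR, a lipoprotein receptor, was 8.30, 8.43 and 7.97 in untransfected arrays and 6.27 to 7.0 in the lines, and fell 2.96-fold (adjusted p = 3.41e-07). The cystine transporter SLC7A11 fell 1.57-fold, and the serine-synthesis enzymes PSAT1 and PSPH 1.44-fold and 1.40-fold. Against these, SLC7A5, the transporter of large neutral amino acids, went from 9.41, 9.47 and 9.29 to between 10.11 and 10.48 and rose 1.87-fold, and its partner SLC3A2 rose by 0.32 on the log2 scale. PPP1R15A, a phosphatase subunit that reverses the stress signal, rose 1.72-fold. ATF4 itself was not called (log2 change 0.05). Among 30 vesicle coat and cargo receptor genes 14 were lower (46.7%) and 4 higher, led by the Golgi tether GOLGB1 (1.40-fold lower) and the coat GTPase SAR1B (1.37-fold lower), and 5 were lower and 2 higher with the line as a random block.

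**Figure D3:**
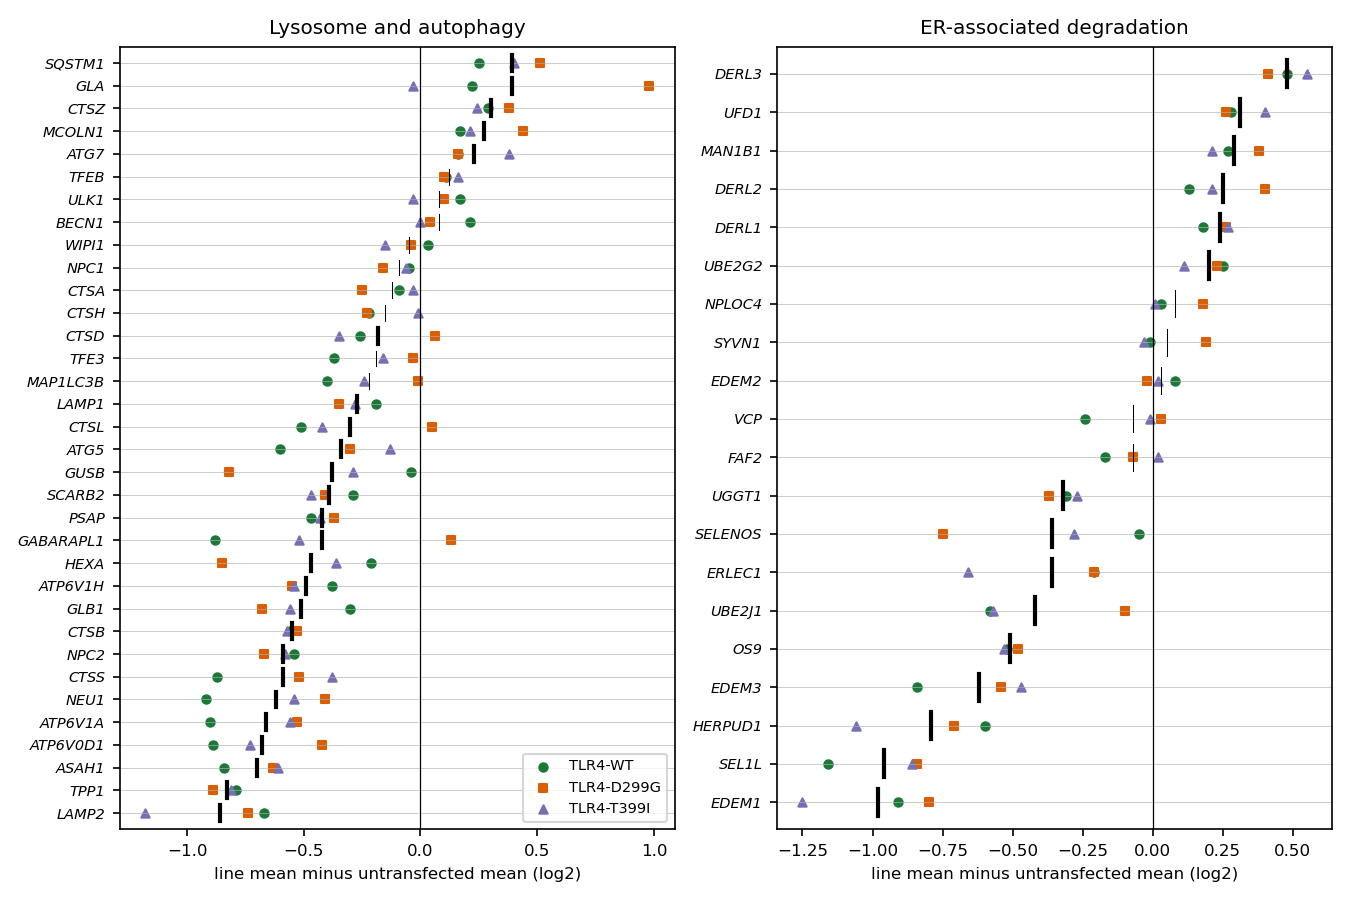
Change of each measured member of the lysosome and autophagy list (left, 34 genes) and the list of degradation from the endoplasmic reticulum (right, 20 genes), as line mean minus untransfected mean on the log2 scale. Symbols are the 3 lines and vertical bars the mean of the lines, thick where called. Bars left of 0 are in the majority on the left, with TPP1 and CTSB tight across lines, while the right panel divides into 6 thick bars above 0 and 9 below.

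Of 31 glycolysis and hypoxia genes 15 were higher (48.4%) and 5 lower, 9 and 1 with the line as a random block, and 6 rose alike. HK2, a hexokinase, was 8.34, 8.05 and 8.29 in untransfected arrays and 9.10 to 9.50 in the lines, and rose 2.18-fold (adjusted p = 6.47e-07). PFKP, a phosphofructokinase, went from 8.05, 8.23 and 8.11 to between 8.92 and 9.11 and rose 1.84-fold, with 1.80-fold to 1.86-fold in the lines. The aldolases ALDOC and ALDOA rose 1.68-fold and 1.30-fold. Other enzymes of the pathway, named after their values were seen, moved little when the lines were averaged, although PGK1 changed by 0.47 in TLR4-D299G and -0.29 in TLR4-T399I on the log2 scale. TPI1 and ENO1 rose by 0.15 and 0.13, and GAPDH, PGK1, PKM and LDHA lay between 0.06 and 0.11 without passing the test. Members known as hypoxia targets diverged, since ANKRD37 rose 1.49-fold while BNIP3 fell by 0.93 on the log2 scale.

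Interferon-stimulated genes moved in both directions. Of 36 measured, 13 were lower (36.1%) and 7 higher (19.4%), and 9 and 3 with the line as a random block, and among brighter probe sets alone 7 were lower. IFIT1, which binds foreign RNA, was 8.30, 8.30 and 8.26 in untransfected arrays and ran from 6.13 to 7.01 in the lines, a 3.57-fold fall (adjusted p = 6.96e-08). EPSTI1 fell 3.08-fold, and the ADP-ribosyltransferase family members PARP9 and PARP14 fell 2.59-fold and 2.01-fold, alike in every line. The RNA sensors RIGI and IFIH1 fell by 0.70 and 0.72 on the log2 scale. BST2, of the same list, rose 3.22-fold as given above, and ISG15, RSAD2 and MX2 were not called. EPSTI1 lies on chromosome 13.

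Transporters and enzymes of the mature enterocyte changed in both directions. The peptide transporter SLC15A1 was 10.32, 10.25 and 10.23 in untransfected arrays and 8.05 to 8.53 in the lines, and fell 3.79-fold (SE 0.06, adjusted p = 1.11e-08). It too lies on chromosome 13. The glutamate transporter SLC1A1 went from 10.40, 10.52 and 10.44 to between 8.73 and 9.12 and fell 2.91-fold, and the iron exporter SLC40A1 fell 2.44-fold from a high level of 12.27 to 12.33. The bicarbonate transporter SLC4A4 rose 2.23-fold and the bile acid exporter subunit SLC51A 1.52-fold. Over the 27 nutrient and ion transporters 11 were higher (40.7%) and 9 lower (33.3%), and 5 and 6 under the line block. In the brush border, 11 of 25 genes were lower (44%) and 5 higher (20%), and 5 and 0 under the line block. The list's median log2 change was 0.07 in TLR4-WT, -0.29 in TLR4-D299G and -0.12 in TLR4-T399I, so the lines did not share a fall of the list. CDHR5, a cadherin that links microvilli, fell 2.01-fold, the aminopeptidase ANPEP 1.52-fold and the actin bundler PLS1 1.36-fold. MTTP, which loads lipid onto apolipoprotein B, rose 3.02-fold, from 9.38, 9.37 and 9.20 to between 10.49 and 11.21, while DGAT2, an enzyme of triglyceride synthesis, fell 1.99-fold and APOE 1.76-fold.

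Drug efflux pumps split by member. ABCG2 went from 6.43, 6.49 and 6.13 in untransfected arrays to between 7.54 and 8.19 in the lines and rose 2.62-fold (adjusted p = 1.4e-06), and ABCB1, which encodes P-glycoprotein, went from 8.47, 8.45 and 8.41 to between 9.49 and 9.95 and rose 2.31-fold (adjusted p = 3.65e-07). ABCC3, an exporter of conjugated bile acids, moved from 9.58, 9.45 and 9.27 to between 7.79 and 8.06 and fell 2.92-fold, ABCC2 fell 1.43-fold, and ABCA5 fell 5.81-fold. Over 27 measured members of the family 14 were higher (51.9%) and 8 lower (29.6%), but the count higher dropped to 9 without untransfected replicate 2 and to 5 with the line as a random block, where 8 were lower. ABCC9, a regulatory subunit of a potassium channel that was not in that list, fell 4.08-fold.

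Among 27 drug-metabolising enzymes 11 were lower (40.7%) and 4 higher (14.8%), with 9 and 2 under the line block. Their median log2 change differed by line, at -0.57 in TLR4-WT, 0.02 in TLR4-D299G and -0.26 in TLR4-T399I. GSTA1, a glutathione transferase, was 10.41, 10.45 and 10.40 in untransfected arrays and 8.34 to 9.15 in the lines, and fell 3.02-fold (adjusted p = 4.39e-07). Its family shares near-identical copies, so that the member is uncertain. The epoxide hydrolase EPHX2 fell 2.31-fold, GSTA4 1.93-fold and the sulphotransferase SULT2A1 1.64-fold. CYP2S1 rose alike by 1.83-fold. In the antioxidant list, catalase (CAT) fell 2.04-fold, from 11.43, 11.30 and 11.27 to between 10.05 and 10.59, whereas the sulphiredoxin SRXN1 and haem oxygenase HMOX1 rose 1.59-fold and 1.42-fold beside GPX2. Over its 31 members 8 were higher and 9 lower (5 and 3 under the line block), and 5 lower without untransfected replicate 2.

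Of 25 p53 targets and apoptosis genes 10 were higher (40%) and 9 lower (36%), and 4 and 2 with the line as a random block, while 3 rose alike and 2 fell alike. BCL2L11, the death-promoting protein BIM, was 8.82, 8.65 and 8.52 in untransfected arrays and 7.32 to 7.89 in the lines, and fell 2.19-fold (adjusted p = 2.76e-06). Its antagonist BCL2L1 rose 1.43-fold. Of 40 proliferation genes 18 were higher (45%) and 5 lower (8 and 2 under the line block). Only 3 rose alike, a share of 7.5% against 6.48% of all genes. They were MCM5, CCNE1 and AURKB, by 1.50-fold, 1.39-fold and 1.33-fold. MKI67 fell by 0.27 on the log2 scale in the mean and ranged from -0.67 in TLR4-D299G to 0.11 in TLR4-T399I. Among regulators of gut and liver identity, MAF fell 2.04-fold and NR5A2 1.90-fold, and HES1 and GATA6 rose 1.39-fold and 1.44-fold. Histone genes were higher in 36 of 70 (51.4% against 25% of all genes) and lower in 0, with 9 higher under the line block. Only 4 of them rose alike (5.71% against 6.48% of all genes).

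Some lists had many members called in the pooled comparison and none that changed alike. Of 33 liver secretory proteins 21 were lower (63.6%) and 5 higher (15.2%), but 9 and 0 with the line as a random block, and 0 changed alike. The median change was -0.66 in TLR4-WT and -1.16 in TLR4-T399I but 0.24 in TLR4-D299G. Albumin (ALB), for example, changed by -2.90, 0.04 and -3.32 on the log2 scale in TLR4-WT, TLR4-D299G and TLR4-T399I. Metallothioneins, which bind zinc and copper, were higher in 7 of 8, but in 4 of 8 with the line as a random block. Here too 0 changed alike, and MT1X rose by 0.39, 2.44 and 1.69 in that order. Their near-identical sequences leave the single members uncertain. The pooled mean describes neither list in every line.

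Genes named ZNF, mostly zinc finger transcription factors, were lower far more often than higher. Of 494 measured, 192 were lower (38.9%) and 70 higher (14.2%), 69 fell alike (14% against 5.64% of all genes) and 13 rose alike, and with the line as a random block 85 were lower and 16 higher. ZNF558, the only member among the largest falls, was 6.42, 6.43 and 6.38 in untransfected arrays and 3.73 to 4.41 in the lines, so that its 5.36-fold fall is a lower bound. Further examples, picked after their values were seen, are ZNF654, which fell 2.07-fold from 8.21, 8.35 and 8.13 to between 6.93 and 7.33, and ZNF626, which fell 1.88-fold from 9.43, 9.49 and 9.39 to between 8.27 and 8.71. The family contains close copies whose probes can cross-hybridise. The pattern ran against that of the neighbourhood: on chromosome 19, 99 of 237 ZNF genes were lower (41.8%) and 30 higher (12.7%), whereas of the 1072 other genes there 50 were lower (4.66%) and 515 higher (48%). With the line as a random block these counts were 46 lower and 6 higher for the ZNF genes there and 20 lower and 212 higher for the others. Off chromosome 19, 93 of 257 ZNF genes were lower (36.2%) and 40 higher (15.6%), and 39 and 10 under the block.

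The shares also varied by chromosome. On chromosome 13, 145 of 317 genes were lower (45.7%) and 30 higher (9.46%), with a median log2 change of -0.14 that was larger in TLR4-D299G (-0.30) than in TLR4-WT (-0.06) and TLR4-T399I (-0.10). Of the genes described above, SLC15A1, GPC5, EPSTI1 and DNAJC3 are among them, and SPRY2 and EFNB2 rose on the same chromosome. Chromosomes 15, 10 and 3 also had more genes lower (37.2%, 34.6% and 31.4%) than the 22.1% over all genes. The lines did not share this on chromosome 15, where the median was -0.20 in TLR4-D299G, -0.01 in TLR4-WT and 0.01 in TLR4-T399I. Only 3.99% of genes fell alike there, against 5.64% of all genes, 8.54% on chromosome 10 and 9.69% on chromosome 3. At the other end, 41.6% of genes were higher on chromosome 19, 37.7% on 16, 36.2% on 22, 35.4% on 17 and 35% on 20, against 25% over all genes. Median changes on those chromosomes were small, from 0.14 to 0.18 in the mean of the lines and from 0.12 to 0.20 in single lines. The number of copies of each chromosome in the lines was not measured, and its part in these shares was not tested.

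**Figure D4:**
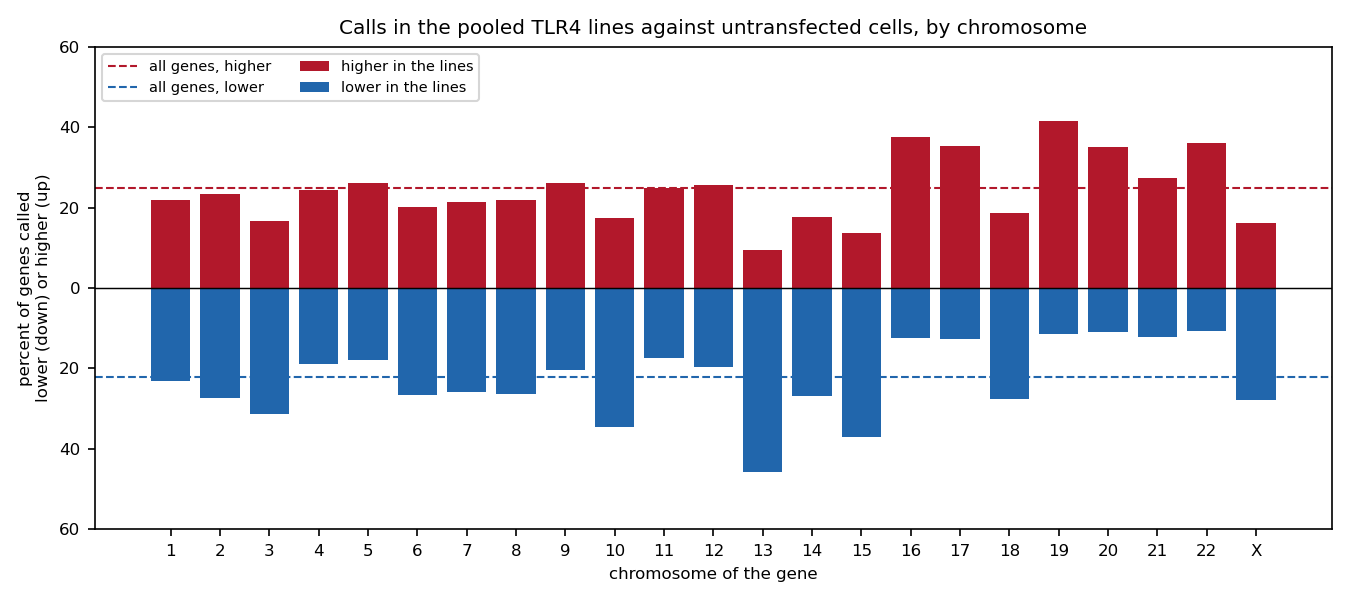
Percent of named genes on each chromosome that were called higher (red, upward) or lower (blue, downward) in the mean of the TLR4 lines than in untransfected cells. Dashed lines mark 25% higher and 22.1% lower over all genes. Chromosome 13 has the tallest blue bar (45.7%) and chromosome 19 the tallest red bar (41.6%).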

How the data were processed

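Each of the 12 arrays measured total RNA from 1 sample on Affymetrix whole-transcript gene arrays. Per the submitters' processing notes, the authors used Affymetrix Expression Console 1.0 and RMA, so the deposited values are log2 expression after background correction, quantile normalisation and probe summary. RMA holds array distributions alike (medians 6.88 to 6.97), so only changes relative to other genes are seen. Precision is limited by the number of arrays, and in the pooled comparison also by the number of lines, 3 against a single untransfected group. The genome build used for the array is not given in the sources used here. No detection calls were used, and folds against values below the lowest lower quartile (5.2) are given as bounds.

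Group means were fitted over the 12 arrays (8 residual degrees of freedom) with limma 3.58.1 in R 4.3.3. The mean of the 3 lines minus untransfected cells, each line alone, and an F test among the lines were each adjusted by Benjamini-Hochberg over 33297 probe sets, two-sided. In the deposited annotation 19460 probe sets carried 1 symbol, 1754 carried more and 12083 had no name. On simulated data for this comparison over 33297 probe sets, the test recovered 64.2% of 67 changes of 0.5 on the log2 scale, 94% of 67 changes of 1 and 98.5% of 66 changes of 2, with 15 false calls. The simulation gave every line the same change, with independent noise of the size seen within groups. It held no differences among lines and changed few probe sets, so these rates need not hold for the real data.

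Named genes are the 15 rises and 15 falls changed alike, with all line arrays outside the untransfected range, ranked by the smallest line change, leaving out small RNAs, unnamed loci and near-identical families. TLR4, LY96, CD14 and up to 6 members changed alike from each list were added, and others are named where a count turns on them. The comparison, lists and rules were chosen with earlier results of these data known. Replicate numbers were not taken as pairs. Deviations of arrays with the same number correlated at -0.08 to 0.27 over 18 pairs (mean 0.07). Those with different numbers correlated at -0.27 to 0.21 over 36 pairs (mean -0.03), so some shared handling by number remains possible.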

Additional observations from a re-analysis of the deposited data

Results flagged for a closer look

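The size of the change differed among the 3 lines, by limma's F test over all probe sets, for 44 of the 150 named genes. The test called 29.3% of all genes, but 236 of the 2233 genes changed alike. Named genes came from those changed alike, except LY96 and CD14, which were not searched for this difference. These 44 were named by a rule that required the same direction in every line, so their shared direction is no finding. In the order TLR4-WT, TLR4-D299G and TLR4-T399I, GPX2 rose 6.25-fold, 5.0-fold and 10.6-fold (F test adjusted p = 2.96e-05), and HEPACAM2 fell 12.0-fold, 23.8-fold and 8.94-fold (adjusted p = 3.51e-05). C2 fell 5.19-fold, 6.79-fold and 8.98-fold (0.000151), and MTTP rose 3.29-fold, 2.32-fold and 3.59-fold (0.000173). LGR5 (0.000347) and MYC (0.00228) rose most in TLR4-WT, at 4.7-fold and 3.73-fold.

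Rises largest in TLR4-WT were also those of SAMD5 (adjusted p = 0.0369), TRABD2A (0.0142), SPRY2 (0.00253), SPRY4 (0.00459), PPP1R15A (0.031), SREBF1 (0.0482) and CYP2S1 (0.0269). Rises largest in TLR4-D299G were those of TLR4 itself (0.0371), DUSP6 (0.0218), BST2 (0.0103), SERPINE2 (0.00161) and GAL (0.00449). SKAP1 (0.00226), NOSTRIN (0.00962), NOP2 (0.0066), RRP12 (0.00707) and ALDOC (0.0159) rose most in TLR4-T399I.

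Falls were largest in TLR4-WT for GPC5 (adjusted p = 0.00183), SEL1L (0.00533), VLDLR (0.00472), TRAM1 (0.0383), SLC40A1 (0.0026), TM7SF2 (0.0271), GSTA4 (0.0113) and ASAH1 (0.0217). They were largest in TLR4-D299G for ABCC9 (0.00047), CROT (0.0145), SLC7A11 (0.049), CDHR5 (0.0455) and EPHX2 (0.00743). In TLR4-T399I the largest falls were those of ABCA5 (0.00179), SLC15A1 (0.0433), EDEM1 (0.0057), DGAT2 (0.00326), APOE (0.0169), IFIT1 (0.00318), CAT (0.0119) and GSTA1 (0.027). The F test does not say which pair of lines differed.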

How the results depend on the processing

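Direction and call of the 150 named genes tested held under array centring, quantile normalisation, trended and robust moderation, 9 line arrays as 1 group, and each line left out, and the 131 of them tested among brighter probe sets alone held too. With the line as a random block 4837 probe sets were called (2180 higher, 2657 lower), against 13064 (6773 and 6291). In that fit SRP54, MDM2, ATP5PB, SNAI1, C1QC and GATA5 lost their call (adjusted p = 0.0805, 0.0503, 0.0702, 0.0515, 0.0701 and 0.0502). The replicate number as a block gave 13615 calls (7156 higher, 6459 lower), and changed no call of a named gene. At an adjusted p under 0.01, calls numbered 8256 (3906 higher), changes alike 1981 (902 higher) and differences among lines 4362. Changes alike numbered 3361 (1782 higher, 1579 lower) and differences among lines 7092. Requiring a smallest line change of 0.75 of the largest left 1669 (952 higher, 717 lower). With fewer lines to meet the rule, 2650 were lower alike without TLR4-WT, 2507 without TLR4-D299G and 2555 without TLR4-T399I (5742 in all, 3187 higher). Differences among the remaining lines then numbered 3750 without TLR4-WT and 2492 without TLR4-D299G. Leaving out single arrays gave 9795 to 13592 calls, lowest without untransfected replicate 2, with 4903 to 7164 higher and 4892 to 6428 lower. Changes alike then ranged from 2629 to 3869 (1349 to 2037 higher, 1265 to 1832 lower) and differences among lines from 5499 to 7639. With 9 line arrays as 1 group, 8 of the Wnt targets and intestinal stem cell genes were higher, 8 of the ATF4 and amino acid stress response genes and 8 of the Golgi vesicle coats and cargo receptors were lower, and 9 glycolysis and hypoxia genes were higher. CD14 passed without TLR4-T399I replicate 3 (adjusted p = 0.0355) and LY96 without untransfected replicate 1 (adjusted p = 0.0435). Genes with values below 5.2 in a group have bounds for folds.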
